A study of Homo sapiens with 24 samples.

Results

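The peaks described here lie in the HOX gene clusters A to D of T47D cells, and they were chosen by position alone: the midpoint of a peak had to lie within 20 kb of the hg38 interval of any of 38 HOX genes. The rule kept 116 of the 189403 peaks in the deposited table, or 0.0612%. The HOXA cluster on chromosome 7 held 26 peaks over 10 genes, HOXB on chromosome 17 held 41 over 10 genes, HOXC on chromosome 12 held 40 over 9 genes, and HOXD on chromosome 2 held 9 over 9 genes. Each peak was given to the nearest listed gene, and 51 lay inside a gene interval.

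Accessibility was read by ATAC-seq, in which Tn5 transposase tags open chromatin, in T47D, a luminal, estrogen receptor-positive line derived from a human breast carcinoma. There were 24 libraries in 6 groups of 4. Cells of 4 groups were kept for 1 day in complete medium with serum and were then given vehicle (0.1% DMSO) or 100 nM fulvestrant, raloxifene or tamoxifen for 1 h. Cells of the other groups were kept for 3 days in starved medium, without phenol red and with charcoal-stripped serum, and were then given vehicle or 1 nM estradiol for 1 h. Medium, days in medium and number of cells seeded changed together between complete and starved cultures, so their effects cannot be told apart. All libraries come from a single cell line.

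HOX genes encode homeodomain transcription factors that give cells their position along the body axis. In each cluster, the low-numbered genes at the 3′ end are switched on early and in anterior regions, and the high-numbered genes at the 5′ end late and in posterior regions. Polycomb complexes hold the clusters silent, Trithorax complexes keep active genes on, CTCF marks boundaries within them, and retinoic acid activates genes at the 3′ end. HOX proteins bind DNA with TALE cofactors of the PBX, MEIS and PKNOX families. In breast cancer cells several HOX genes, HOXC10 among them, have been described as estrogen responsive, and HOXB13 has been studied as a marker of outcome under tamoxifen.

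Library totals ran from 434598 counts (fulvestrant replicate 4) to 12140005, with 2422981 (starved vehicle replicate 3) second lowest and the other 22 at 5448411 or more. Counts over the 116 HOX peaks ran from 365 to 10227 per library, and fulvestrant replicate 4 had no count in 32 of these peaks. That library also had the highest TMM scaling factor, 1.558, and the lowest summed level in each of the 4 clusters. CPM divides counts by the total times this factor, so a high factor lowers all CPM values of a library. Before scaling it held 365 HOX counts of 434598, while starved vehicle replicate 1, for example, held 6834 of 9011203. Complete-medium vehicle replicates 3 and 4 carry a treatment label naming fulvestrant, against their title and description, which name DMSO, so results are also given without them. All 8 luminal markers searched had a peak within 1 kb, the highest per gene at 111 to 203 CPM (counts scaled to library size) per kb of peak. The basal keratins KRT5 and KRT14 had none, while TP63 and ACTA2 had peaks of up to 95.8 and 131 CPM per kb. Blood genes had peaks as well, of up to 13.8 CPM per kb at PTPRC and 128 at SPI1, so a called peak alone did not separate the lineages.

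Promoter sequence was at hand for 20 of the 38 genes, in 27 windows of 300 bases, and 5 windows overlapped a peak. HOXC4 and HOXC5 share one of these windows, which leaves 4 distinct stretches, shown because they are the HOX promoters of that table at which open chromatin was called. The 250 bases before each annotated start follow, 5′ to 3′ on the gene's strand, from RefSeq (GRCh38.p14). Capitals mark a FOXA motif in the first, inside the deposited peak, and a HOX-PBX motif in the second, outside the deposited peak.
HOXC4 and HOXC5, chr12:54016638-54016887, plus strand: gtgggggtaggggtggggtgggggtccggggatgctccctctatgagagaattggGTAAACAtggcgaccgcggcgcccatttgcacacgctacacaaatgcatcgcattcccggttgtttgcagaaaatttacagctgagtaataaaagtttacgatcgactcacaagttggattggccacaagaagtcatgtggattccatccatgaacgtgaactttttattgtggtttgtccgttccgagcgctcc
HOXD11, chr2:176107030-176107279, plus strand: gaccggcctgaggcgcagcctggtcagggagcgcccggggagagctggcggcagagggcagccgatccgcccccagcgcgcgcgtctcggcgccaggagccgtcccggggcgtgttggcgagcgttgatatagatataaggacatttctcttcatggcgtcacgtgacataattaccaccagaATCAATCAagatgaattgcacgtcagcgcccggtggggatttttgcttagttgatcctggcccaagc
HOXA10, chr7:27179862-27180111, minus strand: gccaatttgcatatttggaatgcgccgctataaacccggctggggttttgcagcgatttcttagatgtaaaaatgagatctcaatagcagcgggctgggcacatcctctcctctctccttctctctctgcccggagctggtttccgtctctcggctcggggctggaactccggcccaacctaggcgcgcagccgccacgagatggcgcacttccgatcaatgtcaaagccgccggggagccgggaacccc
HOXD1, chr2:176188418-176188667, plus strand: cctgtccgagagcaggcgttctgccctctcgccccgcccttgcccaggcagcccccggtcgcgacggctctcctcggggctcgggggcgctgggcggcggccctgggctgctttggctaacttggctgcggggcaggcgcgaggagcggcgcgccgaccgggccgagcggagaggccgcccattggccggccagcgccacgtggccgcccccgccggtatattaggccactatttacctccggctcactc

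Of these 250 bases, the deposited peak covered 250 at HOXC4, 113 at HOXD11, 191 at HOXA10 and 154 at HOXD1. Motifs were searched on both strands of the 300-base windows, and matches of different motifs were allowed to overlap. The FOXA motif (TGTTTAC or GTAAACA) was in the shared HOXC4 and HOXC5 window and in 3.423% of the 35116 promoters of the same length. The HOX-PBX motif (TGATTNAT) was in the HOXD11 and HOXA2 windows and in 2.816% of all promoters. A CTCF core (CC and AGG 3 bases apart, then any base and GGC) was in the HOXD10 and HOXA11 windows and in 4.645% of all promoters. A GATA motif (AGATAA) was in 2 HOXA3 windows and in 10.331% of all promoters. The AP-1 motif (TGANTCA, in 7.709% of all promoters), the estrogen response element (GGTCA and TGACC 3 bases apart, 0.057%) and the DR5 retinoic acid element (GGTCA and GGTCA 5 bases apart, 0.085%) had no match in the HOX windows. Of the windows with a peak, GC content was 51.7% in that shared by HOXC4 and HOXC5, 56.7% at HOXA10, 62.3% at HOXD11 and 74.3% at HOXD1. The median was 58.0% in the 22 windows without a peak and 58.7% over all promoters.

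The 4 clusters differed in how much of them was called open. Peaks per 10 kb of searched sequence (the gene intervals with 20 kb on either side) numbered 2.54 in HOXC, 2.25 in HOXB, 1.86 in HOXA and 0.628 in HOXD. Summed over the peaks of a cluster and averaged over 24 libraries, the level was 373.8 CPM in HOXC, 298.2 in HOXB, 119.8 in HOXA and 52.9 in HOXD. Per 10 kb of searched sequence this came to 23.8, 16.4, 8.57 and 3.69 CPM. HOXC thus carried the most signal per length and HOXD the least, and the map of peaks along the clusters shows how it was spread.

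**Figure D1:**
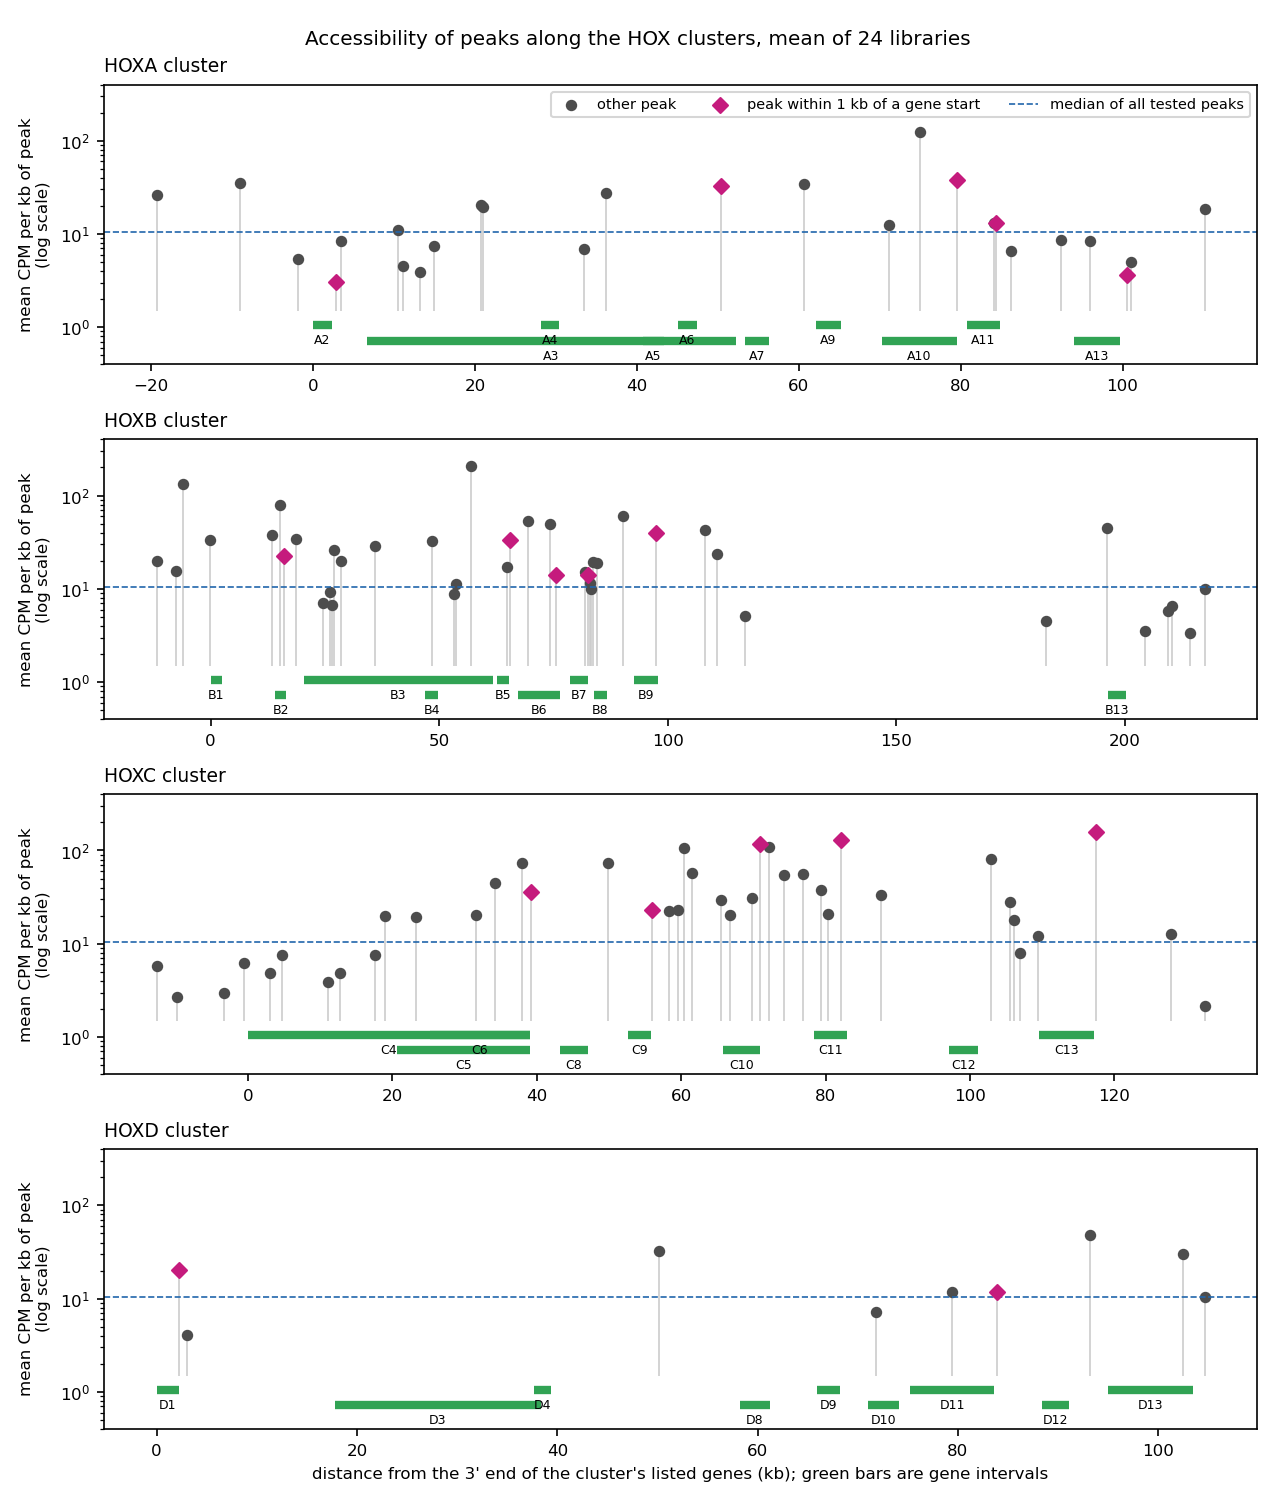
Each point is a HOX peak, placed by its distance in kb from the 3′ end of the cluster's listed genes (x axis) and its mean CPM per kb of peak over 24 libraries (y axis, log scale), with gene intervals as green bars. Peaks above 100 CPM per kb stand near HOXA10, HOXB3, HOXB1, HOXC9, HOXC10, HOXC11 and HOXC13, and the highest HOXD peak stands at 47.6.

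Levels between peaks are compared per kb of peak width. The median HOX peak stood at 19.5 CPM per kb, against 10.4 for all 156745 tested peaks, and the median percentile of the HOX peaks among them was 68.0. By cluster the median was 22.6 in HOXC, 19.4 in HOXB, 11.9 in HOXD and 11.8 in HOXA. Above the 90th percentile of all tested peaks (68.1 CPM per kb) stood 12 HOX peaks, 8 of them in HOXC, 3 in HOXB and 1 in HOXA. None of the HOXD peaks did. The 7 HOX peaks too low for the test, at 2.15 to 4.03 CPM per kb, were spread over the clusters, with 3 in HOXC, 2 in HOXA, 1 in HOXB and 1 in HOXD.

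The highest HOX peak lay inside the interval of HOXB3, at chr17:48585405-48585605 with 205 CPM per kb. That interval also spans HOXB4, and the peak lies between HOXB4 and HOXB5, 56.98 kb from the cluster's 3′ end. In complete-medium vehicle libraries it read 43.7, 40.3, 38.5 and 38.4 CPM, and in starved vehicle libraries 38.6, 38.4, 45.3 and 44.6. The highest group mean of this peak was 1.17 times the lowest. Next in HOXB came a peak 8.63 kb past the start of HOXB1 (chr17:48522257-48522498, 133 CPM per kb), beyond the 3′ end of the cluster, and one inside HOXB2 (chr17:48543627-48543874, 80.0).

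The 3 highest HOXC peaks were at starts of 5′ genes, which in development act in posterior regions. They were the peak just before HOXC13 (chr12:53938473-53938796, 156 CPM per kb), that inside HOXC11 (chr12:53973782-53973983, 130) and that before HOXC10 (chr12:53984938-53985182, 117). In HOXA the highest was inside HOXA10 (chr7:27175273-27175478, 123 CPM per kb), 1.06 kb before the inner of its 2 annotated starts, and the next was 37.9. The 3 highest HOXD peaks read 47.6 (chr2:176097614-176097900, between HOXD13 and HOXD12), 32.6 (chr2:176140524-176140967, downstream of HOXD8) and 30.0 (chr2:176088345-176088595, inside HOXD13). These 3 made up 67.2% of the HOXD signal, against 28.1% to 34.3% for the 3 highest per kb of each other cluster. The shares are not alike, since HOXD has 9 peaks in all, against 26 in HOXA, 41 in HOXB and 40 in HOXC.

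Of the 38 genes, 19 had a peak with its midpoint within 1 kb of a start, 5 in HOXA, 5 in HOXB, 7 in HOXC and 2 in HOXD. These are 17 different peaks, since HOXC4, HOXC5 and HOXC6 share a start and a peak. For 18 genes no annotated start was at hand, and the edge of the gene interval on the cluster's 5′ side was used, so their start peaks are less certain. The highest and lowest start peak stood at 37.9 (HOXA10) and 3.07 CPM per kb (HOXA2) in HOXA. They stood at 39.5 (HOXB9) and 14.1 (HOXB6) in HOXB, 156 (HOXC13) and 22.9 (HOXC9) in HOXC, and 20.3 (HOXD1) and 11.7 (HOXD11) in HOXD. The lowest HOXC start peak was therefore above both HOXD start peaks.

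Some stretches held no peak at all. The longest, 46.79 kb in HOXD (chr2:176140967-176187756), held HOXD3 and HOXD4 whole, and one of 21.29 kb (chr2:176119233-176140524) held HOXD8 and HOXD9. HOXA2, HOXA4, HOXA5, HOXA6, HOXA7, HOXA9, HOXB1, HOXC8, HOXC12 and HOXD12 also lay whole in stretches of 4.46 to 14.95 kb without a peak. The middle of the long interval between HOXB9 and HOXB13 is over 20 kb from both genes and was not searched, and the table holds 5 peaks there that are not counted as HOX peaks. A stretch without a peak is not a measured level of 0, since the table holds counts only at called peaks.

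Summed cluster levels moved little between groups. In HOXC they were 385.0 ± 15.1 CPM in complete vehicle, 392.6 ± 20.8 with raloxifene, 388.6 ± 14.3 with tamoxifen, 368.4 ± 25.5 in starved vehicle and 372.1 ± 8.38 with estradiol (SD, n = 4 each). With fulvestrant the HOXC level was 335.9 ± 68.0 CPM, and 369.4 ± 14.6 without the shallow replicate 4. In HOXD it was 53.62 ± 6.17 CPM in complete vehicle, 56.0 ± 2.69 in starved vehicle and 54.6 ± 5.55 with estradiol. In all 20 comparisons of a cluster level between groups the libraries overlapped, and the log2 ratios ran from -0.224 (HOXD, fulvestrant) to 0.064 (HOXC, complete over starved vehicle). The plot of cluster levels by library shows fulvestrant replicate 4, scaled by its TMM factor of 1.558, below the rest in each cluster.

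**Figure D2:**
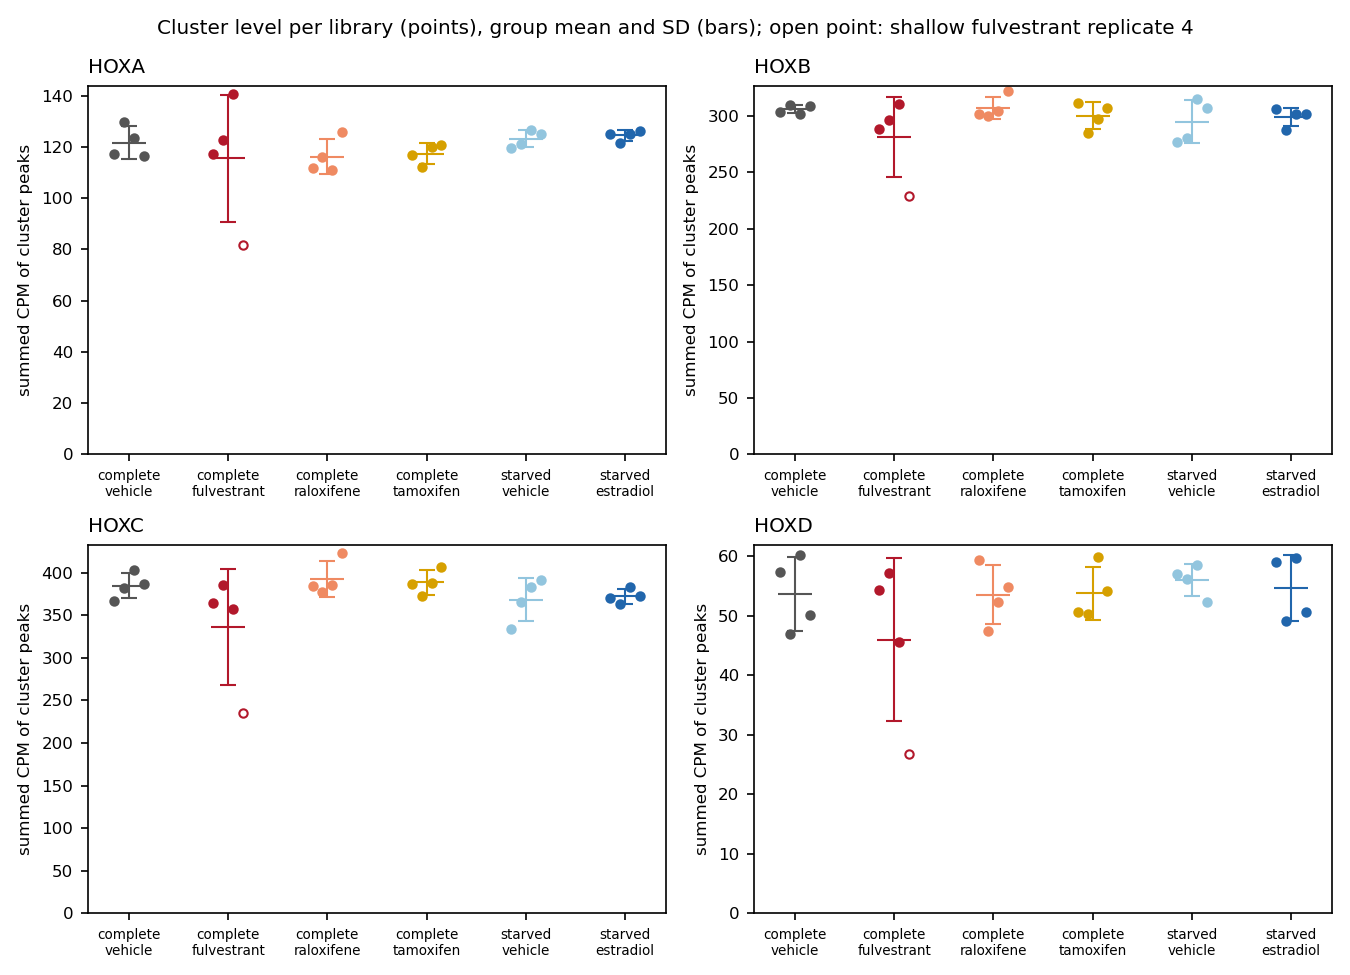
Points are libraries, with 4 in each group on the x axis, and the y axis is the summed CPM of a cluster's peaks, starting at 0; bars are mean and SD. The open point, fulvestrant replicate 4 with 434598 counts and a TMM factor of 1.558, is the lowest library in each panel. The other libraries of a group overlap those of its control.

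Estradiol was compared with vehicle in starved cells, which asks where the hormone changes chromatin within 1 h. Of 109 tested HOX peaks 1 was called (edgeR quasi-likelihood test, Benjamini-Hochberg adjusted p under 0.05 over all tested peaks), or 0.917%, against 0.835% of all tested peaks (0.813% higher and 0.0223% lower). The called peak lies just past the 3′ end of HOXC10, a 5′ gene of its cluster, at chr12:53990395-53990600 and 5.35 kb from the gene's start. It read 3.23, 2.49, 3.21 and 4.00 CPM in starved vehicle and 5.25, 5.54, 6.04 and 7.07 CPM with estradiol. The groups did not overlap. The peak rose by a log2 fold change of 0.85 (SE 0.228), which is 1.80-fold, with an edgeR adjusted p of 0.0456. The call was kept in 8 of 21 alternatives and lost on leaving out any library of the starved groups but estradiol replicate 1, while the log2 fold change stayed between 0.73 and 1.03.

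The midpoint of this peak lies 1.24 kb before the hairpin of MIR196A2, a microRNA gene between HOXC10 and HOXC9 whose product is known to target HOX messages. Its mature form is shown because the called peak is the HOX peak nearest to that hairpin, together with that of its HOXA-cluster relative MIR196B. Capitals mark the seed (bases 2 to 8), which both share, and the sequences are from RefSeq (GRCh38.p14). MIR196A1 in the HOXB cluster gives the same 5p sequence as MIR196A2, while the 3p forms of these genes differ.
hsa-miR-196a-5p, chr12:53991762-53991783, plus strand: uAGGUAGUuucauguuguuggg
hsa-miR-196b-5p, chr7:27169528-27169549, minus strand: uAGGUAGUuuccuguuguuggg

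Second by p was the start peak of HOXC13, a posterior gene also known for its role in hair and nail. It read 38.6, 45.5, 32.1 and 46.7 CPM in starved vehicle and 56.8, 55.0, 50.1 and 53.1 CPM with estradiol, without overlap. Its log2 fold change of 0.34 (SE 0.104) had an edgeR adjusted p of 0.135 and so did not pass, though 5 of 21 alternatives called it. Non-overlapping groups, all of them higher with estradiol, were seen at these 2 HOX peaks, against 2.49% of all tested peaks higher and 1.33% lower. An unadjusted edgeR p under 0.05 was found at 7 of 109 HOX peaks (6.42%, against 6% of all). In the other clusters the smallest p belonged to a HOXB3 peak (chr17:48547008-48547259, log2 fold change 0.48, edgeR adjusted p 0.513), a HOXA3 peak (chr7:27133698-27133898, 0.76, adjusted p 0.772) and the HOXD1 start peak (-0.50, adjusted p 0.760). None of these passed the test. For 87 of 109 HOX peaks the 95% interval of the estradiol effect stayed within a 2-fold change in either direction.

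Complete and starved medium were compared between the vehicle groups. Of 109 tested HOX peaks 13 were called by the same edgeR test, 10 higher and 3 lower in complete medium. This is 11.9% of them, against 17.8% of all tested peaks (7.93% higher and 9.91% lower). Groups did not overlap at 10 HOX peaks higher (all peaks 8.38%) and 4 lower (8.31%). With RLE in place of TMM scaling the split was 6 higher and 6 lower. HOXC had 7 higher and 1 lower of 37 tested peaks, HOXB 3 higher and 1 lower of 40, HOXA 1 lower of 24, and HOXD none of 8. The median log2 fold change was 0.05 over the HOX peaks and 0.02 over all tested peaks. HOXC10 accounted for 4 of the higher peaks, out of 7 given to it, and HOXB1 for 3 out of 4. Whether the calls gather around few genes was not tested.

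Around HOXC10 the largest rise was again at chr12:53990395-53990600. Complete vehicle libraries read 5.51, 7.41, 7.72 and 6.42 CPM there, all above the starved vehicle libraries given above. The log2 fold change was 1.03 (SE 0.226) with an adjusted p of 0.000385 by edgeR, and 20 of 21 alternatives kept the call. Estradiol-treated starved cells, at 5.98 ± 0.799 CPM, stood between starved vehicle (3.23 ± 0.620) and complete vehicle (6.77 ± 1.00). The estradiol and medium comparisons share the starved vehicle libraries, so their values are given side by side only. The other HOXC10 peaks called higher in complete medium lay 1.11, 4.15 and 9.35 kb past its start, with log2 fold changes of 0.52, 0.63 and 0.48 and edgeR adjusted p of 0.0433, 0.0343 and 0.0140. These calls were kept in 9, 10 and 15 of 21 alternatives. The peak at HOXC10's start itself read 28.1 ± 1.40 CPM in complete vehicle, against 28.7 ± 4.11 in starved vehicle, and was not called.

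The HOXC13 start peak was higher in complete medium. Complete vehicle libraries read 53.4, 47.1, 62.7 and 49.8 CPM, above the 32.1 to 46.7 CPM of starved vehicle, with a gap of under 1 CPM between the groups. The log2 fold change was 0.34 (SE 0.104, edgeR adjusted p 0.0142), and 16 of 21 alternatives kept the call. Inside HOXC4, a gene of the cluster's 3′ end, peaks 34.4 and 20.2 kb past the start were higher, from 0.918 ± 0.766 to 2.61 ± 0.463 CPM (log2 fold change 1.24) and from 3.72 ± 1.88 to 6.59 ± 0.806 CPM (0.62), kept in 15 of 20 and 9 of 21 alternatives. The first of these read 0 in starved vehicle replicate 3, the second shallowest library.

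The start peak shared by HOXC4, HOXC5 and HOXC6, whose promoter is printed above, moved the other way. It read 9.52, 9.75, 9.78 and 6.13 CPM in complete vehicle and 10.6, 12.2, 9.62 and 14.6 CPM in starved vehicle, and the groups overlapped. The log2 fold change was -0.46 (SE 0.168, edgeR adjusted p 0.0430), and 10 of 21 alternatives kept the call. Of the 16 start peaks that entered the test, this one and that of HOXC13 were the only ones called between the media.

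On the far 3′ side of HOXB1, an early hindbrain gene, 3 peaks rose and 1 fell in complete medium. The peak at its 3′ edge (chr17:48528270-48528522) read 7.79, 8.58, 10.6 and 10.4 CPM in complete vehicle and 5.42, 5.47, 4.41 and 5.28 CPM in starved vehicle, with no overlap. Its log2 fold change was 0.81 (SE 0.206, edgeR adjusted p 0.00240), kept in 18 of 21 alternatives. Peaks 8.63 and 10.0 kb past the HOXB1 start were higher by log2 fold changes of 0.32 and 0.73 (edgeR adjusted p 0.0402 and 0.0442), each call kept in 11 of 21 alternatives. One 14.3 kb past it was lower, with 3.32 ± 0.904 CPM in complete vehicle against 5.89 ± 1.58 in starved vehicle (log2 fold change -0.72, edgeR adjusted p 0.0303), kept in 12 of 21. Neighbouring peaks on this side thus changed in opposite directions.

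The smallest p between the media was at the peak beyond the 3′ end of HOXA2, a gene that patterns the hindbrain and the face (chr7:27080909-27081120, 19.3 kb from the gene). It read 3.14, 6.24, 4.63 and 2.48 CPM in complete vehicle and 7.26, 8.58, 10.8 and 8.01 CPM in starved vehicle, without overlap. The log2 fold change was -0.98 (SE 0.213, edgeR adjusted p 0.000340), and all 21 alternatives kept the call. With estradiol the peak stood at 7.17 ± 1.07 CPM in starved medium, near the starved vehicle. In HOXD the smallest p was that of a peak outside HOXD13 (chr2:176086053-176086529, log2 fold change -0.31, SE 0.241, edgeR adjusted p 0.424), which did not pass. The panels of the 13 called peaks show all 6 groups.

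**Figure D3:**
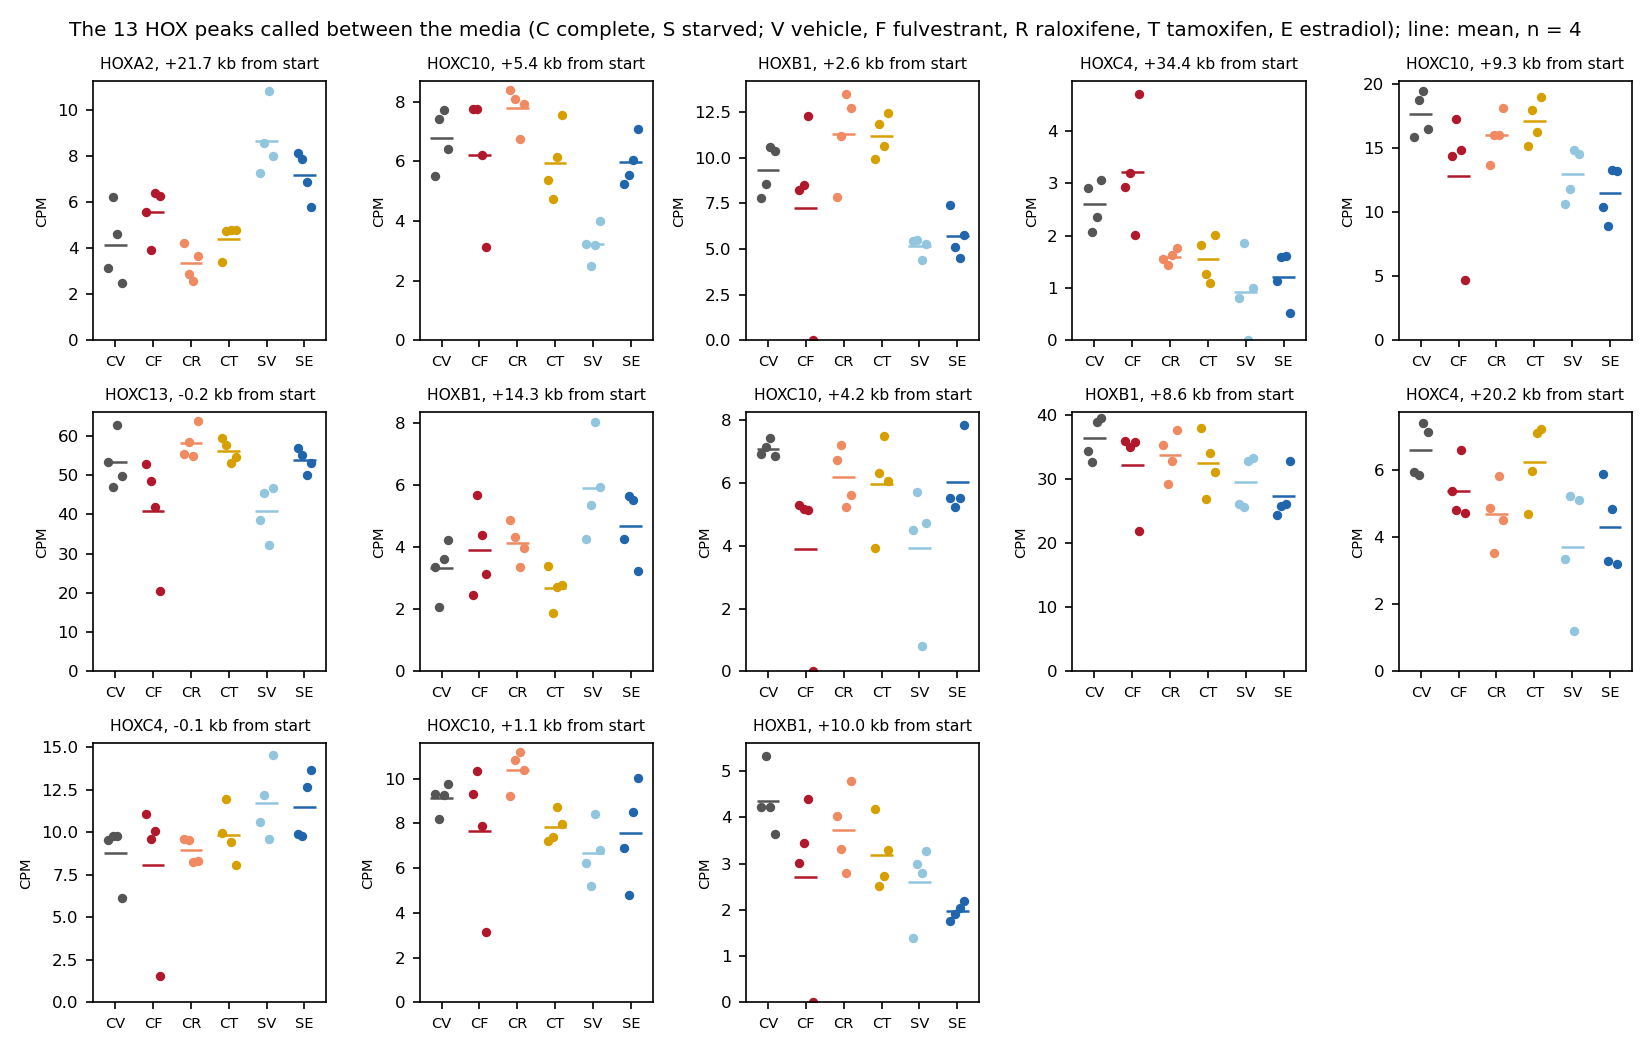
Each panel is a HOX peak called between complete and starved vehicle, titled by its nearest gene and distance from that gene's start. Points are libraries in CPM (y axis, from 0), lines are group means (n = 4), and on the x axis C and S stand for complete and starved medium; 10 panels are higher in CV than in SV, and those of HOXA2, the HOXC4 start and HOXB1 at 14.3 kb are lower.

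The counts leaned on single libraries and on the vehicle libraries with conflicting labels. Without complete vehicle replicates 3 and 4, 1 HOX peak was called higher (HOXC10, chr12:53990395-53990600) and 2 lower. Within replicates 1 and 2 the counts were 5 and 1, and within replicates 3 and 4 they were 1 and 2. Leaving out single libraries gave 2 to 8 higher and 1 to 4 lower, with 2 higher without starved vehicle replicate 1 and 3 without complete vehicle replicate 3. DESeq2 called 4 higher and 2 lower. The share of all tested peaks called under each of these settings is not given here. Whether the HOX counts moved with the whole table was therefore not tested.

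Estradiol-treated starved cells were also set against complete vehicle, a comparison that shares the complete vehicle libraries with the one above. Of 109 tested HOX peaks 12 were called (11%, against 16.6% of all), 3 higher (all peaks 9.39%) and 9 lower with estradiol in starved medium (all peaks 7.24%). Lower were the 3 HOXB1 peaks at 2.62, 8.63 and 10.0 kb (log2 fold changes -0.74, -0.42 and -1.13), the HOXC10 peak at 9.35 kb (-0.62) and the HOXC4 peaks at 34.4 and 20.2 kb (-1.02 and -0.60). Also lower were a peak near HOXA9 (chr7:27160788-27161201, -0.43), one inside HOXB3 (chr17:48582016-48582273, -0.79) and the peak 0.840 kb before HOXA13. The last had the largest change, -2.38 (SE 0.646, edgeR adjusted p 0.00523), from 1.25 ± 0.537 to 0.202 ± 0.101 CPM. This HOXA13 peak is low, with 131 counts over all 24 libraries and at most 14 in any of them. Higher were the HOXA2 peak (0.79), a HOXC4 peak just inside the gene (chr12:54017821-54018181, 0.36) and a peak 17.2 kb before HOXB13 (0.76). Of these calls the HOXB3 one was kept in 6 of 21 alternatives, those near HOXA9 and HOXB13 and that of HOXC4 at 20.2 kb in 10 of 21, that of HOXC4 at 34.4 kb in 11 of 20, that before HOXA13 in 15 of 18 and that just inside HOXC4 in 14 of 21. The HOXB1, HOXA2 and HOXC10 calls were kept in 18 to 20 of 21. No HOXD peak passed; the smallest p, at the HOXD13 side (chr2:176086053-176086529, 0.47), had an edgeR adjusted p of 0.150. Without the vehicle libraries of conflicting label, 0 were higher and 3 lower.

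**Figure D4:**
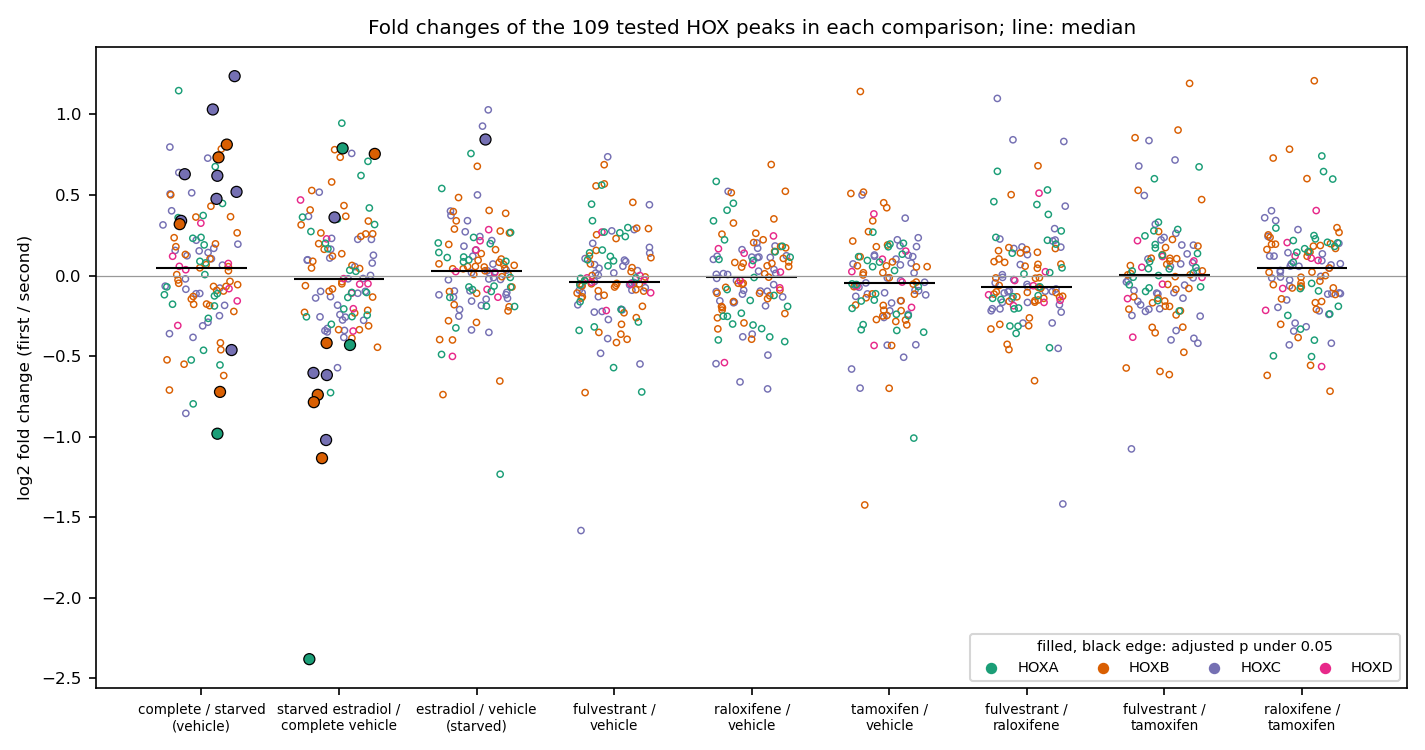
Log2 fold change (y axis) of the 109 tested HOX peaks in each of 9 comparisons (x axis), coloured by cluster, with called peaks filled and a line at the median. The 13 and 12 called peaks of the leftmost comparisons and the 1 called with estradiol stand out, and none is called for the antagonists.

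The 3 antagonists were each compared with vehicle in complete medium, where serum supplies hormone. Fulvestrant is a steroidal antagonist that leads to receptor loss, while raloxifene and tamoxifen are nonsteroidal modulators that keep the receptor bound to DNA. No HOX peak was called for any of them by edgeR, against 0% (fulvestrant), 0.000638% (raloxifene) and 0% (tamoxifen) of all tested peaks, and DESeq2 called none either. An unadjusted edgeR p under 0.05 was found at 3 HOX peaks with fulvestrant (2.75%, all peaks 3.96%), 6 with raloxifene (5.50%, all 3.81%) and 5 with tamoxifen (4.59%, all 4.13%). DESeq2 gave 1, 3 and 2 such peaks. The 95% interval stayed within a 2-fold change for 82 HOX peaks with fulvestrant, 89 with raloxifene and 86 with tamoxifen.

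With fulvestrant the smallest p was at a HOXB3 peak (chr17:48554447-48554803), at 1.9 CPM against 4.14 CPM in vehicle, with a log2 fold change of -0.73 and an edgeR adjusted p of 1.00. The fulvestrant libraries read 2.74, 2.47, 2.38 and 0.0 CPM there, the last being the shallow replicate 4. By cluster the smallest p otherwise fell on the HOXC10 peak at 4.15 kb (-0.48), a HOXA11 peak (chr7:27184359-27184583, -0.57) and a HOXD10 peak (chr2:176119015-176119233, 0.27). With raloxifene they were the HOXC4 peak at 20.2 kb (-0.49), the HOXD1 start peak (-0.54), the HOXB9 start peak (-0.29) and a HOXA3 peak (chr7:27136463-27136696, -0.40). With tamoxifen they were a peak 19.1 kb before HOXB9 (chr17:48645323-48645523, -1.42), the HOXA9-side peak (-0.34), the HOXC4 peak at 34.4 kb (-0.70) and the HOXD13-side peak (chr2:176086053-176086529, 0.38). All had an edgeR adjusted p of 1.00. The HOXC10 peak that rose with estradiol read 6.23 ± 2.18 CPM with fulvestrant, 7.78 ± 0.715 with raloxifene and 5.95 ± 1.22 with tamoxifen, against 6.77 ± 1.00 in vehicle. Its fulvestrant libraries read 7.77, 7.77, 6.23 and 3.14 CPM, the last being the shallow replicate 4. The fitted log2 fold changes against vehicle were 0.11, 0.20 and -0.16 for the 3 antagonists in that order.

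The antagonists were also compared with each other at their matched 100 nM and 1 h, in 3 pairs, each adjusted over all tested peaks. No HOX peak was called for fulvestrant against raloxifene (all peaks 0.000638%), fulvestrant against tamoxifen (0%) or raloxifene against tamoxifen (0%), and DESeq2 called none. An unadjusted edgeR p under 0.05 was found at 6 (all peaks 5.16%), 6 (5.27%) and 5 (3.92%) HOX peaks, and by DESeq2 at 4, 6 and 5. Between the steroidal fulvestrant and the nonsteroidal raloxifene the smallest p was at the HOXC13 start, with a log2 fold change of -0.29 (95% interval -0.52 to -0.07, edgeR adjusted p 0.964). That peak read 52.8, 48.5, 41.9 and 20.4 CPM with fulvestrant and 55.5, 58.3, 54.8 and 63.7 CPM with raloxifene, without overlap, and the lowest value is that of the shallow library. Against tamoxifen the smallest p with fulvestrant was at the HOXC4 peak 1.11 kb inside the gene, with -0.34 (-0.62 to -0.06, edgeR adjusted p 0.934). For raloxifene against tamoxifen the smallest p was at the HOXC10 peak 1.11 kb past its start, with 0.40 (0.04 to 0.77, edgeR adjusted p 1.00). The interval of the difference stayed within 2-fold for 83, 85 and 86 of 109 HOX peaks. A p above the threshold does not show that the compounds act alike.

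Peaks over 20 kb and up to 200 kb from the HOX genes gave a local reference of 141 peaks, 124 of them tested, with a median of 9.42 CPM per kb. Between the media 10 were higher and 10 lower (16.1%), with estradiol 1 was higher, and the antagonists gave 0 called by edgeR. The peak raised by estradiol lies 28.25 kb from HOXB1 (chr17:48500148-48500396), just outside the window of the rule. It stood at 2.12 ± 0.431 CPM in starved vehicle, 6.69 ± 0.442 with estradiol and 7.73 ± 3.03 in complete vehicle. Its log2 fold change was 1.65 with estradiol (SE 0.260, edgeR adjusted p 6.24e-06) and 1.83 in complete over starved medium.

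Regulators and partners of HOX genes were taken from lists of 52 genes with 544 tested peaks within 20 kb. With estradiol 3 of these peaks were higher and 0 lower by edgeR, or 0.551%, against 0.835% of all tested peaks, and the 3 are in the retinoid list. One was inside RARA (chr17:40322369-40322630), the gene of a retinoic acid receptor, which rose by 1.28 on the log2 scale (SE 0.114, edgeR adjusted p 1.9e-13), and another was inside DHRS3, a retinal reductase gene (2.19, SE 0.305, adjusted p 2.04e-07). Between the media 51 were higher and 41 lower in complete medium, or 16.9%, against 17.8% of all tested peaks. By list the higher and lower counts were 20 and 19 of 167 for retinoid genes, 10 and 12 of 156 for TALE cofactors and 5 and 5 of 93 for Polycomb genes. They were 10 and 2 of 57 for Trithorax genes, 4 and 3 of 47 for boundary genes, 2 and 0 of 21 for caudal and ParaHox genes, and 0 and 0 of 7 for EVX1 and EVX2. Examples of single peaks were one inside EZH1, a Polycomb methyltransferase gene (log2 fold change 1.17), and one inside ALDH1A3, whose enzyme makes retinoic acid (-1.03).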

How the data were processed

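ATAC-seq counts were analysed for 24 T47D libraries. The deposited values are raw counts per peak in a single peak set. The submitters' processing notes name Bowtie2 2.4.4, cutadapt 1.8.1, SAMtools 1.9 and the build hg38. The peak caller, the counting tool, duplicate handling, any Tn5 shift and whether peak starts count from 0 or 1 are, in the sources used here, not given, and coordinates are printed as deposited.

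All libraries entered a fit in edgeR 4.0.16 (R 4.3.3) with 6 group means, TMM scaling, filterByExpr (minimum count 10, minimum total 15), which kept 156745 peaks and 109 of 116 HOX peaks, and robust quasi-likelihood tests. P-values are two-sided and were Benjamini-Hochberg adjusted across every tested peak, with 0.05 as threshold. The SE is the log2 fold change over the root of F, and intervals are 95% with 18 degrees of freedom. The edgeR tests also borrow degrees of freedom across peaks. The intervals leave these out and so tend to be wider than the tests imply. CPM uses TMM-scaled totals, while fitted fold changes weigh libraries by depth. Totals of 434598 to 12140005 counts limit precision at low peaks. The labels do not call the libraries separate cultures, and the spread behind each p-value may thus be technical. No library looked deposited again: chi-square over df was 1.73 to 3.81 in the 36 within-group pairs.

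Gene intervals, promoters and miRNAs came from RefSeq tables on GRCh38.p14. No genome was used, so motifs were searched in promoter windows and not in peaks. Named peaks are the 3 highest per cluster, the highest and lowest start peaks, all called peaks, and those with the smallest p per cluster or antagonist pair. The HOXC13 peak under estradiol, the examples from the pathway lists and the flanking peak were chosen after their values were seen. The members and gene lists were chosen with earlier results of these data known. Alternatives were total counts, RLE factors, a median-abundance filter, no filter, loess offsets (span 0.3, 4 iterations), a replicate block, a replicate-set term, subsets of libraries, DESeq2 1.42.0 and a 5 kb window. The pipeline was tested on simulated data. Values of 2 genes of the marker and pathway lists are not reported here.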

Additional observations from a re-analysis of the deposited data

Results flagged for a closer look

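Groups of 4 libraries, 132 in all, were examined at the summed cluster levels and at the HOX peaks called in any comparison. Of these, 8 held a library whose gap to the nearest other was, relative to the group's range, above Dixon's 95% critical value. Chance gives about 1 in 20 groups, or 6.6. In 4 of the 8 the library was fulvestrant replicate 4, the shallowest at 434598 counts, as the lowest of its group. It read 0.0 CPM at the HOXC10 peak 4.15 kb past the gene's start (others 5.13 to 5.30) and 1.57 CPM at the shared HOXC4 start peak (9.62 to 11.1). It also read 22.0 CPM at the HOXB1 peak 8.63 kb past the start (35.0 to 36.0) and 0.0 CPM at the HOXA9-side peak (16 to 18.7). The CPM values of this library are also divided by its TMM factor of 1.558, the highest of all libraries. Neither depth nor this scaling was tested as the source.

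The other 4 were in deeper libraries. Complete vehicle replicate 4, with a conflicting treatment label, read 6.13 CPM at the HOXC4 start peak (others 9.52 to 9.78). Estradiol replicate 4 read 7.84 CPM at the HOXC10 peak 4.15 kb past the start (5.22 to 5.53). Tamoxifen replicate 1 read 3.40 CPM at the HOXA2 peak (4.73 to 4.79). Fulvestrant replicate 3 read 2.56 CPM at the peak before HOXA13 (0.0 to 0.366).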

How the results depend on the processing

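All 132 counts for the antagonists and their pairs under alternatives stayed at 0, and no named peak changed sign: of 541 values for 26 called results, 357 kept the call and 184 lost it. The count with estradiol (1) became 2 with total counts, with loess offsets and above the median abundance. It became 0 without a filter, within replicates 3 and 4, without the conflicting vehicle libraries and without the shallow libraries, and 0 to 1 leaving out single libraries. The 1 call within replicates 1 and 2, and with only the groups compared, was the HOXC13 start peak in place of HOXC10. Higher in complete medium (10) became 6 with RLE, 5 within replicates 1 and 2, 1 within replicates 3 and 4, 1 without the conflicting libraries and 4 with DESeq2, and 2 to 8 leaving out single libraries (2, 3, 5 and 6 without starved vehicle replicate 1, complete vehicle replicates 3 and 1, and starved vehicle replicate 2). Lower in complete medium (3) became 6 with RLE, 6 above the median abundance, 5 with the replicate block, 1 within replicates 1 and 2 and 1 within 5 kb of a gene, and 1 to 4 leaving out single libraries. Higher with estradiol than in complete vehicle (3) became 1 within replicates 3 and 4, 0 without the conflicting libraries and 1 within 5 kb, and 1 to 4 leaving out single libraries. Lower there (9) became 4 with the replicate set as a term, 4 within replicates 1 and 2, 1 within replicates 3 and 4, 3 without the conflicting libraries and 5 with DESeq2, and 6 to 9 leaving out single libraries. Subsets test fewer libraries. For the other changes the cause was not tested. The share of all tested peaks called under each alternative is not given here, so the counts of this section cannot be set against it.

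Same-numbered libraries did not deviate together (60 pairs, r -0.128 to 0.126, median 0.0526), so the numbers were not taken as pairs. Replicates 1 and 2, and 3 and 4, were nearer to each other than to the other set: in 4 of 6 groups both chi-square values within a set were below all those across sets (median 1.80 against 2.28), and the median r between groups for other numbers was 0.0419 within a set and -0.0485 across. With the set as a term the counts were 7 higher and 2 lower between media and 3 higher and 4 lower for estradiol against complete vehicle. With the replicate block the counts were 10 higher and 5 lower between media, 3 and 11 for estradiol against complete vehicle, 1 with estradiol and 0 for the antagonists. Of 240 cluster ratios under alternatives, leaving out single libraries among them (added after seeing the data), 239 moved by less than the spread. The exception was HOXB with fulvestrant, from -0.123 to 0.05 with total counts. Depth limits what can be said of peaks under about 2 CPM.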
